A study of Mus musculus with 8 samples.

Results

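The Hox cluster genes were described in RNA-seq libraries of mouse brain cells sorted magnetically for GLAST, the glutamate transporter encoded by Slc1a3, at 2 postnatal ages. Libraries from postnatal day 8 (P8), labelled astrocyte precursors (n = 4), were set against libraries from postnatal day 0 (P0), labelled radial glia (n = 4). All 8 came from whole brains of wild-type C57BL/6J mice, with no further treatment or allele in the labels, and no unsorted library was analysed here. Members were every gene symbol that begins with Hoxa, Hoxb, Hoxc or Hoxd directly followed by a digit, 40 of the 23284 genes of the deposited table. Of the 40, 39 are the protein-coding Hox genes and 1 is the antisense transcript Hoxa11as, which had no read in any library.

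Hox genes encode homeodomain transcription factors that give cells their position along the head-to-tail axis. They lie in 4 genomic clusters, and genes at the same relative place in different clusters share a number and form a paralog group. Low numbers are switched on first and reach furthest forward, into the hindbrain, middle numbers mark the spinal cord at neck and trunk level, and the highest numbers mark the hind end, the limbs and the genital tubercle. The forebrain and midbrain form without Hox expression, and inactive Hox clusters are a textbook target of Polycomb repression. In the NCBIM37 assembly (mm9) with the GENCODE M1 annotation, cluster A held 11 genes at chr6:52105366-52210874, cluster B 10 genes at chr11:96055630-96229570, cluster C 9 genes at chr15:102751534-102867274 and cluster D 9 genes at chr2:74506367-74603200.

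The promoters of 4 members are printed because they stand for the ways in which the genes were read here: Hoxa2 at both ages and lower at P8, Hoxa5 and Hoxb8 mostly in 2 of the P8 libraries, and Hoxa13 in no library. Sequences are from RefSeq on GRCm38.p6, 5′ to 3′ on the gene's own strand, 250 bases before to 50 bases after the start, at chr6:52164782-52165081 for Hoxa2, chr6:52204538-52204837 for Hoxa5 and chr6:52260831-52261130 for Hoxa13, all on the minus strand, and at chr11:96281655-96281954 on the plus strand for Hoxb8. Capitals mark matches, on either strand, to TGATNNAT, the composite site bound by Pbx and Hox proteins together, and to AGGTCA, the half-site of retinoid receptors.
Hoxa2: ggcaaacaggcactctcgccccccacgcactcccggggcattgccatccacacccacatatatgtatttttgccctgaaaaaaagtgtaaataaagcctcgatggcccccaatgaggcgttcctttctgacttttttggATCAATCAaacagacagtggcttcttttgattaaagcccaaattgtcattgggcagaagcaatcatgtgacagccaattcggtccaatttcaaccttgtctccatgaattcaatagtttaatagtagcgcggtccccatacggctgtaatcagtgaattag
Hoxa5: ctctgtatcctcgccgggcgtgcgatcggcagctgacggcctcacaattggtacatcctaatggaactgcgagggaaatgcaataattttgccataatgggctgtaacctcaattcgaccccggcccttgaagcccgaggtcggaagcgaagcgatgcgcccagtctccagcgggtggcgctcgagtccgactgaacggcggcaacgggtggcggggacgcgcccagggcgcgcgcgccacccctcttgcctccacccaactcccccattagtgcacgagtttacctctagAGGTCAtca
Hoxb8: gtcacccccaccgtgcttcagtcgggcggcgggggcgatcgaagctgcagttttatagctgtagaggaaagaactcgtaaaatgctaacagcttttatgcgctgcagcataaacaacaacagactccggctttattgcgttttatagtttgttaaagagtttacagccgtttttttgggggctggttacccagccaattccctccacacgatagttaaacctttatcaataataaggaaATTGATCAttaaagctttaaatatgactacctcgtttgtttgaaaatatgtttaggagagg
Hoxa13: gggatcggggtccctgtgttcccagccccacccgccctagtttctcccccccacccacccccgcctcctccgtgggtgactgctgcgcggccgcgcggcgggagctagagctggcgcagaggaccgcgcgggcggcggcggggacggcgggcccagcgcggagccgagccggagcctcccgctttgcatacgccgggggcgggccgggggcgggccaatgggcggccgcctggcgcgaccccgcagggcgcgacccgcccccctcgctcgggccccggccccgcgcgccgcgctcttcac

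Hoxa2 and Hoxb8 each held 1 match to TGATNNAT, Hoxa5 held 1 match to AGGTCA, and Hoxa13 held neither. RefSeq gave 24 promoters for 22 of the 39 Hox genes. A match to TGATNNAT was present in 4 of the 24 (16.7%), beside 8.85% of all 32851 promoters of the same length, and a match to AGGTCA in 7 (29.2%), beside 16.3% of all promoters. Hox promoters were rich in CG dinucleotides, with a median of 14.5 per 300 bases against 7 over all promoters, and the Hoxa13 promoter held 45. The 11 promoters of Hox genes without a read had a median of 15 CG (4 to 45), and the 13 promoters of Hox genes with a read had a median of 14 (4 to 29), so the 2 kinds overlapped over most of their range. These matches and counts describe the letters in the windows and nothing about binding.

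Total counts were 63131890 to 94308235 in the P8 libraries and 30708719 to 54615722 in the P0 libraries, so the P8 libraries were deeper. The limit that a count of 0 allows, 3 counts, came to 0.0318 to 0.0977 CPM (each count over its library's total, scaled to 1e6) per library. Slc1a3 had 3919, 5029, 3867 and 3718 CPM at P8, against 228, 300, 331 and 323 CPM at P0. The astrocyte and radial glia list summed to 13800 to 16880 CPM at P8 and 1509 to 2420 CPM at P0. Of its 11 genes 10 rose at P8, where 24.5% of all genes tested rose. The exception was Gja1, a gap junction gene of astrocytes also found in other cells, with 785 ± 65.1 CPM at P8 and 905 ± 446 CPM at P0 (SD, n = 4 each; adjusted p = 0.745 by edgeR), which made up much of the P0 sum. Markers of other cells were present at both ages. At P0 some of them stood far above the astrocyte and radial glia list, so the list did not bear out the P0 label as it did that of P8. Choroid plexus markers summed to 440 to 3787 CPM at P8 and 32280 to 68700 CPM at P0, meningeal and fibroblast markers to 384 to 1087 CPM at P8 and 7269 to 20550 CPM at P0, and neuronal markers to 85.6 to 588 CPM at P8 and 26.9 to 83.1 CPM at P0. Ttr alone made up most of the choroid plexus sum at P0 (26910, 22940, 39410 and 61700 CPM). Ptgds made up 11820 of the 20550 CPM of meningeal and fibroblast markers in the first P0 library. Ttr was named after its values were seen. All 10 choroid plexus and all 11 meningeal and fibroblast markers were lower at P8. Microglial markers summed to 1144 to 3994 CPM at P8 and 330 to 983 CPM at P0 (6 of 7 higher at P8). Oligodendrocyte lineage markers summed to 796 to 2825 CPM at P8 and 626 to 782 CPM at P0. In such bulk libraries, fewer cells that express a gene and less of its RNA per cell cannot be told apart. Values of 4 libraries are given below in the order of their replicate numbers.

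Hox transcripts were scarce at both ages, and most of the level came from paralog groups 1 to 4, which held 55.4% to 87.3% of the summed length-corrected Hox level of each library. Of the 39 protein-coding genes, 27 had a read in some library, 26 at P8 and 19 at P0, and 7 had a read in all 8 libraries. In the P8 libraries 19, 17, 22 and 24 Hox genes had a read, against 11, 13, 16 and 15 in the P0 libraries. Over all genes, 18510, 18185, 18434 and 18666 had a read in the P8 libraries, against 17881, 16992, 18141 and 18614 in the P0 libraries, and the ages overlapped. Thinned to the depth of the shallowest library, 17.5, 15.7, 20.7 and 23 Hox genes would be expected to have a read at P8, against 10.7, 13, 15.3 and 14.4 at P0. The ages then parted only narrowly, with 15.7 lowest at P8 and 15.3 highest at P0. The numbers over all genes were not thinned. This thinning was chosen after seeing the data. All Hox genes together took 555, 163, 694 and 666 counts at P8, against 167, 232, 403 and 316 at P0.

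On the scale of RPKM, which is CPM per kilobase of gene length, the highest Hox gene of any library was Hoxb3 at 0.856 RPKM in P8 library 3. In every library, 60.0% to 67.9% of all genes in the table had a higher RPKM than the highest Hox gene, and 0 Hox genes exceeded the median of the genes with a read (5.19 to 7.23 RPKM). Summed over the 39 genes, Hox levels were 2.47, 1.05, 4.74 and 4.86 RPKM at P8, against 1.75, 2.95, 3.28 and 2.62 RPKM at P0. The means were 3.28 ± 1.85 RPKM at P8 and 2.65 ± 0.658 RPKM at P0 (SD, n = 4 each), and the P8 libraries lay both below and above all 4 P0 libraries. By cluster, the summed level was 1.0 ± 0.559 RPKM at P8 and 1.05 ± 0.424 RPKM at P0 for cluster A, and 1.7 ± 0.998 RPKM at P8 and 1.14 ± 0.565 RPKM at P0 for cluster B. Clusters C and D were lower, with 0.256 ± 0.193 RPKM at P8 and 0.0995 ± 0.110 RPKM at P0 for cluster C, and 0.319 ± 0.120 RPKM at P8 and 0.356 ± 0.300 RPKM at P0 for cluster D.

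**Figure D1:**
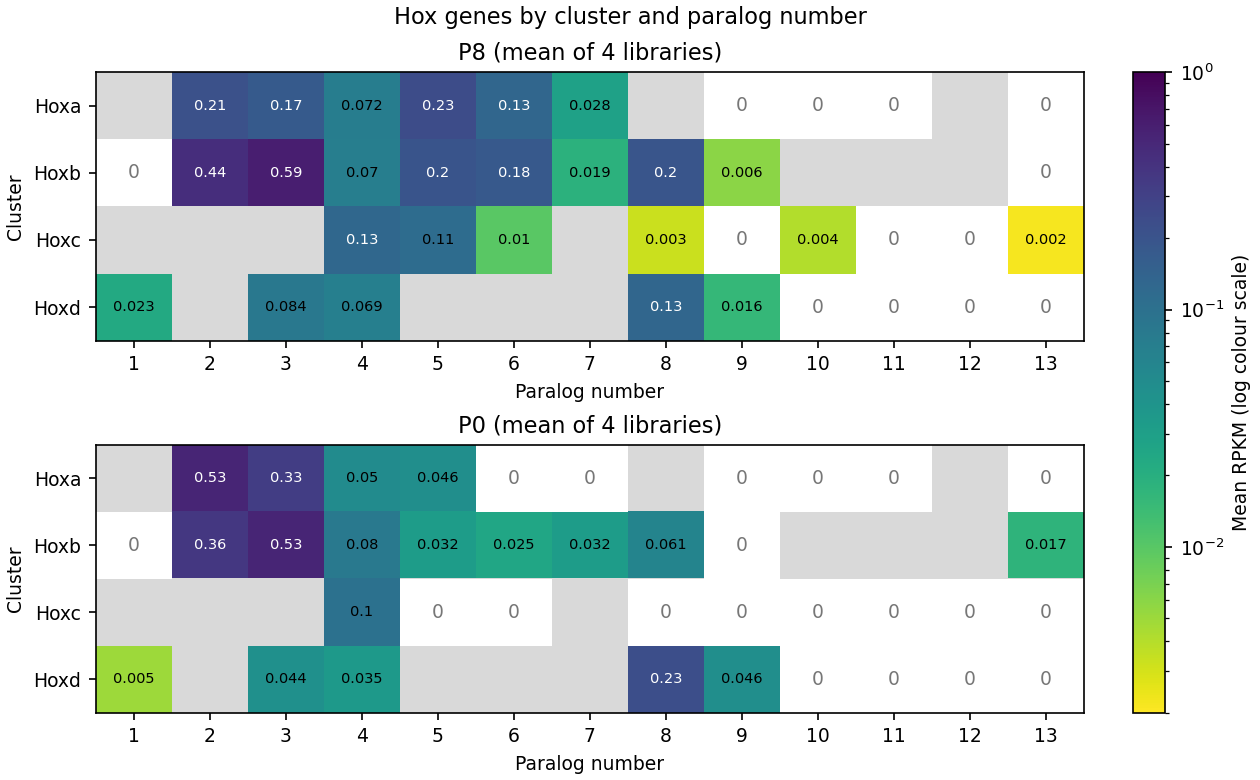
Mean RPKM of the protein-coding Hox genes by cluster (rows) and paralog number (columns), with P8 above P0 (mean of 4 libraries each; log colour scale; grey, no gene at that place or none drawn; 0, no read). Values lie at the left of both panels, with Hoxb3 highest at P8 (0.591 RPKM) and Hoxa2 and Hoxb3 at P0 (0.529 and 0.528 RPKM), and the right of both panels is nearly all 0.

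By paralog number, the summed level overlapped between the ages for groups 1 to 4, was higher in part of the P8 libraries for groups 5 to 8, and was at or near 0 for groups 9 to 13. The 12 genes of groups 1 to 4 summed to 1.99, 0.684, 2.66 and 2.74 RPKM at P8, against 0.970, 2.57, 2.82 and 2.28 RPKM at P0. The 11 genes of groups 5 to 8 summed to 0.467, 0.337, 2.06 and 2.07 RPKM at P8, against 0.593, 0.374, 0.402 and 0.321 RPKM at P0. On this scale P8 libraries 3 and 4 stood above all others in groups 5 to 8, and the other P8 libraries lay within the P0 range. In CPM, P8 libraries 3 and 4 held 83.3% of the summed P8 level of groups 5 to 8 and 67.6% of that of groups 1 to 4. The 16 genes of groups 9 to 13 summed to 0.00872, 0.0271, 0.0283 and 0.0490 RPKM at P8, against 0.186, 0, 0.0558 and 0.0141 RPKM at P0.

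**Figure D2:**
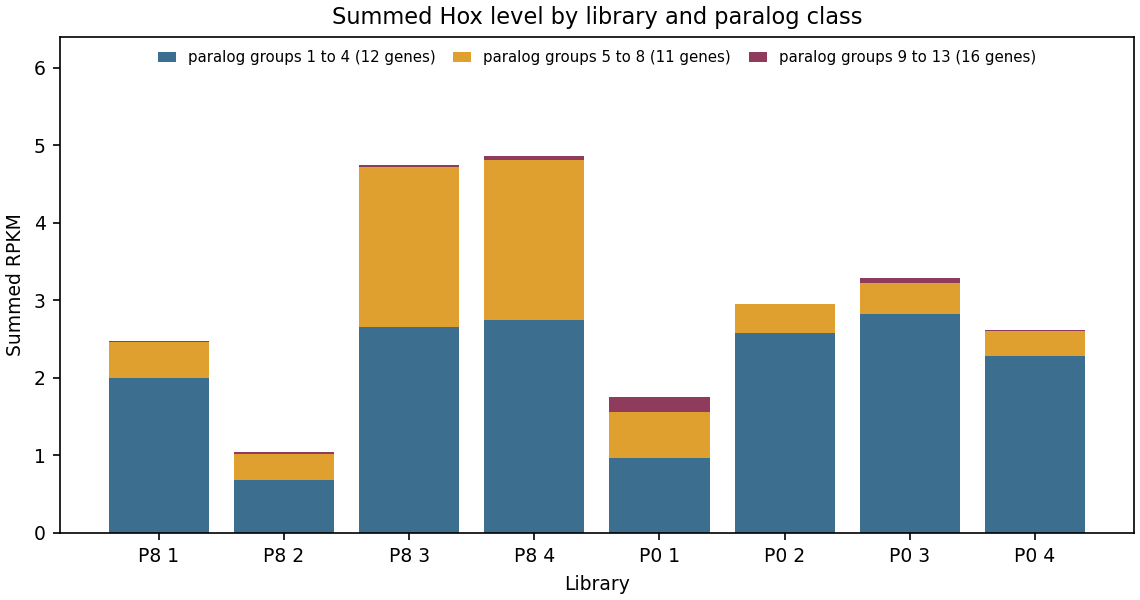
Summed RPKM of the Hox genes in each library, stacked by paralog class (groups 1 to 4, 5 to 8 and 9 to 13), with the P8 libraries left of the P0 libraries. The second P8 library is lowest at 1.05 RPKM, and the share of groups 5 to 8 is widest in P8 libraries 3 and 4, where it reached 2.06 and 2.07 RPKM.

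Differences between the ages were tested with edgeR's quasi-likelihood test on the counts, with Benjamini-Hochberg adjustment over all 16808 genes that passed the filter on low counts. Of the 39 protein-coding members, 8 passed that filter and 31 did not. At an adjusted p under 0.05, 1 of the 8, Hoxa2, was lower at P8 and 0 were higher (12.5% called), where 49.5% of all genes tested were called, 24.5% higher and 25% lower. Of higher Hox genes, 0 had an unadjusted p under 0.05 by edgeR and 0 were called by DESeq2. Among the 2634 genes with a mean in the same range as the 8 (0.193 to 2.08 CPM), 37.5% were called, and their median standard error was 0.56 on the log2 scale, against 0.23 over all genes tested. The 8 genes had a median log2 fold change of 0.03, against 0.04 over all genes. The labels do not say whether replicates were separate animals, litters or pools, so these p-values measure only the spread between libraries, which may be technical.

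Of paralog group 1, Hoxb1, which gives identity to a single hindbrain segment, had no read at either age, which allows up to 0.0103 CPM over the summed P8 libraries and 0.0160 CPM over the summed P0 libraries. Hoxd1, known from pain-sensing neurons of mice, had 10, 0, 0 and 4 counts at P8, against 0, 0, 2 and 0 counts at P0.

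Hoxa2, the Hox gene that reaches furthest forward in the hindbrain, fell at P8. It had 0.435, 0.171, 0.396 and 0.424 CPM at P8, against 0.554, 0.977, 1.04 and 0.983 CPM at P0. The lowest P0 library stood above the highest P8 library, and the fall was 1.24 ± 0.43 on the log2 scale (adjusted p = 0.0365 by edgeR). Counts behind these levels were 105 over the P8 libraries and 167 over the P0 libraries. With 1 library left out the log2 fold change stayed between -1.40 and -1.02, but the call was kept without the first P0 library (adjusted p = 0.0274) and lost without any 1 of the other 7 (adjusted p 0.0568 to 0.0861). It was also lost without the filter (adjusted p = 0.0552), while DESeq2, which called 54.3% of genes (27.8% lower), called it (adjusted p = 0.014). Over all alternatives its adjusted p ranged from 0.014 to 0.0969, highest with replicate numbers as a block, a fit that called 43.8% of genes. An exon of Hoxa2 overlaps one of Hoxa3 on the same strand, so some reads could belong to either gene.

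Its paralog Hoxb2, which acts in facial motor neuron development, had 0.753, 0.270, 0.665 and 1.21 CPM at P8, against 0.288, 0.0651, 1.23 and 0.798 CPM at P0. Both ages spanned a wide range, with the second P0 library lowest of all, and the adjusted p was 0.726 by edgeR (log2 fold change 0.33 ± 0.73). Hoxb2 and Hoxb3 share exon positions with the antisense transcript Hoxb3os, and the kit does not mark strand, so reads from the 2 strands cannot be told apart there.

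Paralog group 3 held the Hox gene with the highest mean RPKM at P8, which was level with Hoxa2 at P0. That gene, Hoxb3, which patterns the rear hindbrain together with Hoxa3, had 2.17, 0.555, 3.18 and 2.89 CPM at P8, against 0.821, 2.74, 2.55 and 1.76 CPM at P0. Each age had 1 low library, the second at P8 and the first at P0, and the log2 fold change was 0.23 ± 0.53 (adjusted p = 0.734 by edgeR). Hoxb3 was also the 1 Hox gene with values in the authors' deposited table of P8 against P0, with a log2 fold change of 0.25 and a false discovery rate of 0.739 there. Hoxa3, needed for the thymus and parathyroid as well as for cranial nerves, had 0.498, 0.185, 0.475 and 0.581 CPM at P8, against 0.164, 1.73, 0.751 and 0.668 CPM at P0. Here 3 of the 4 P0 libraries lay above all P8 libraries and the first P0 library lay below them, and the adjusted p was 0.315 by edgeR (log2 fold change -0.83 ± 0.65). Hoxd3 had 0.117, 0.0996, 0.428 and 0.330 CPM at P8, against 0, 0.0651, 0.146 and 0.297 CPM at P0, and did not pass the filter.

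Paralog group 4, whose genes end their forward reach within the rear hindbrain, was read from all 4 clusters. Hoxb4, known also as a regulator of blood stem cells, had 0.191, 0.0854, 0.317 and 0.126 CPM at P8, against 0.0411, 0.0651, 0.403 and 0.315 CPM at P0 (log2 fold change -0.16 ± 0.74, adjusted p = 0.867 by edgeR). Hoxc4 had 0.0848, 0.0569, 0.459 and 0.392 CPM at P8, against 0, 0.456, 0.0366 and 0.297 CPM at P0 (log2 fold change 0.43 ± 1.06, adjusted p = 0.753 by edgeR). The ages overlapped for both genes. Hoxa4 and Hoxd4 did not pass the filter and had 2 to 12 and 6 to 22 counts per P8 library, against 0 to 6 counts each per P0 library.

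The 3 genes of paralog group 5 did not pass the filter. Hoxc5, active at neck and forelimb level in the spinal cord, had 0.138, 0.128, 0.459 and 0.487 CPM at P8 (13, 9, 29 and 31 counts) and no read in any P0 library. Its pooled P8 level was 0.281 CPM (95% Poisson interval 0.224 to 0.349), at least 17.6-fold higher than the 0.0160 CPM that 3 counts over the summed P0 libraries allow, with the P8 counting error not included in that bound. In the fit without the filter, which tested 20059 genes of which 41.9% were called (20.8% higher and 21% lower), Hoxc5 was the 1 Hox gene called among 27 (adjusted p = 0.00456 by edgeR). That call was kept without each of the 8 libraries in turn (adjusted p 0.00684 to 0.0153), and the alternative of leaving out libraries in this fit was chosen after seeing the data. Exons of Hoxc5 overlap the annotated gene Gm20398 on the same strand. Hoxa2 and Hoxc5 were the 2 Hox genes whose ages did not overlap, among 27 with a read, where the ages did not overlap for 40.8% of all genes with a read and 47.2% of those that passed the filter.

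Hoxa5, which is needed for breathing and for phrenic motor neurons, had 0.201, 0.114, 0.855 and 0.581 CPM at P8, against 0, 0.163, 0.0732 and 0.111 CPM at P0. Its P8 libraries 3 and 4 were the highest of the 8 and its second P8 library lay within the P0 range. Hoxb5, known from the neural crest that forms the gut's nervous system, had 0.308, 0.128, 0.760 and 0.314 CPM at P8, against 0, 0.130, 0 and 0.111 CPM at P0. Its second P8 library, too, fell just under the highest P0 library. Without the filter the log2 fold changes were 2.42 ± 0.96 for Hoxa5 (adjusted p = 0.0684 by edgeR) and 2.75 ± 1.12 for Hoxb5 (adjusted p = 0.0721 by edgeR), so neither passed the threshold. In some fits without 1 library they passed the filter, through the P8 libraries in which they are high, and were called higher at P8, so these calls give no support of their own. Without the second P8 library, a fit that called 22.4% of all genes higher, the adjusted p was 0.0312 for Hoxa5 and 0.0387 for Hoxb5 by edgeR. Without the second P0 library (23.9% of all genes called higher) it was 0.0476 and 0.0409, and without the fourth P0 library (24.3% called higher) it was 0.0484 for Hoxb5.

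Of the genes of groups 6 to 8, Hoxa6 had 1, 0, 9 and 13 counts and Hoxa7 had 0, 0, 5 and 9 counts at P8, and neither had a read at P0. Against 3 counts over the summed P0 libraries, the pooled levels of 0.0789 CPM (95% Poisson interval 0.05 to 0.118) and 0.0480 CPM (0.0263 to 0.0806) were at least 4.94-fold and at least 3.01-fold higher at P8, again without the P8 counting error. Hoxa7 had no read in 2 of the 4 P8 libraries, and without the filter neither gene passed the test (adjusted p = 0.0767 and 0.132 by edgeR). Hoxb6 had 4, 2, 17 and 38 counts at P8, against 2, 0, 0 and 5 counts at P0. Hoxb8, known in mice for its part in grooming behaviour and in a lineage of microglia, had 0.106, 0.0285, 1.14 and 0.801 CPM at P8, against 0, 0.456, 0.0732 and 0.111 CPM at P0. Its first and second P8 libraries lay within the P0 range and libraries 3 and 4 above it, and its adjusted p without the filter was 0.262 by edgeR. Hoxb7, whose exons overlap those of Hoxb8, had 0, 0, 1 and 5 counts at P8, against 0, 0, 9 and 0 counts at P0. Hoxc6, a marker of limb-innervating levels of the cord, had 4 counts in all at P8 and none at P0, and Hoxc8 had 2 counts at P8 and none at P0, and both stayed under 3 counts in every library.

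Hoxd8 and its neighbour Hoxd9 were both high in 1 library. Hoxd8 had 0.0848, 0.185, 0.174 and 0.283 CPM at P8, against 0.801, 0.0651, 0.293 and 0.130 CPM at P0, and Hoxd9 had 0, 4, 0 and 5 counts at P8, against 19, 0, 0 and 0 counts at P0. The first P0 library was highest of all 8 for both genes, while it was lowest of the P0 libraries for Hoxa2, Hoxa3 and Hoxb3. Cluster D made up 45.5% of that library's summed Hox RPKM, against 4.90% to 8.84% in the other P0 libraries. Hoxd8 was not called (log2 fold change -0.79 ± 0.75, adjusted p = 0.406 by edgeR), and without the first P0 library its log2 fold change was 0.18. That library also had the highest summed level of meningeal and fibroblast markers, 20550 CPM against 7269 to 9380 CPM in the other P0 libraries. Its summed forebrain factors were the lowest at P0, 117 CPM against 222 to 241 CPM. Their part in the Hoxd8 and Hoxd9 levels was not tested.

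**Figure D3:**
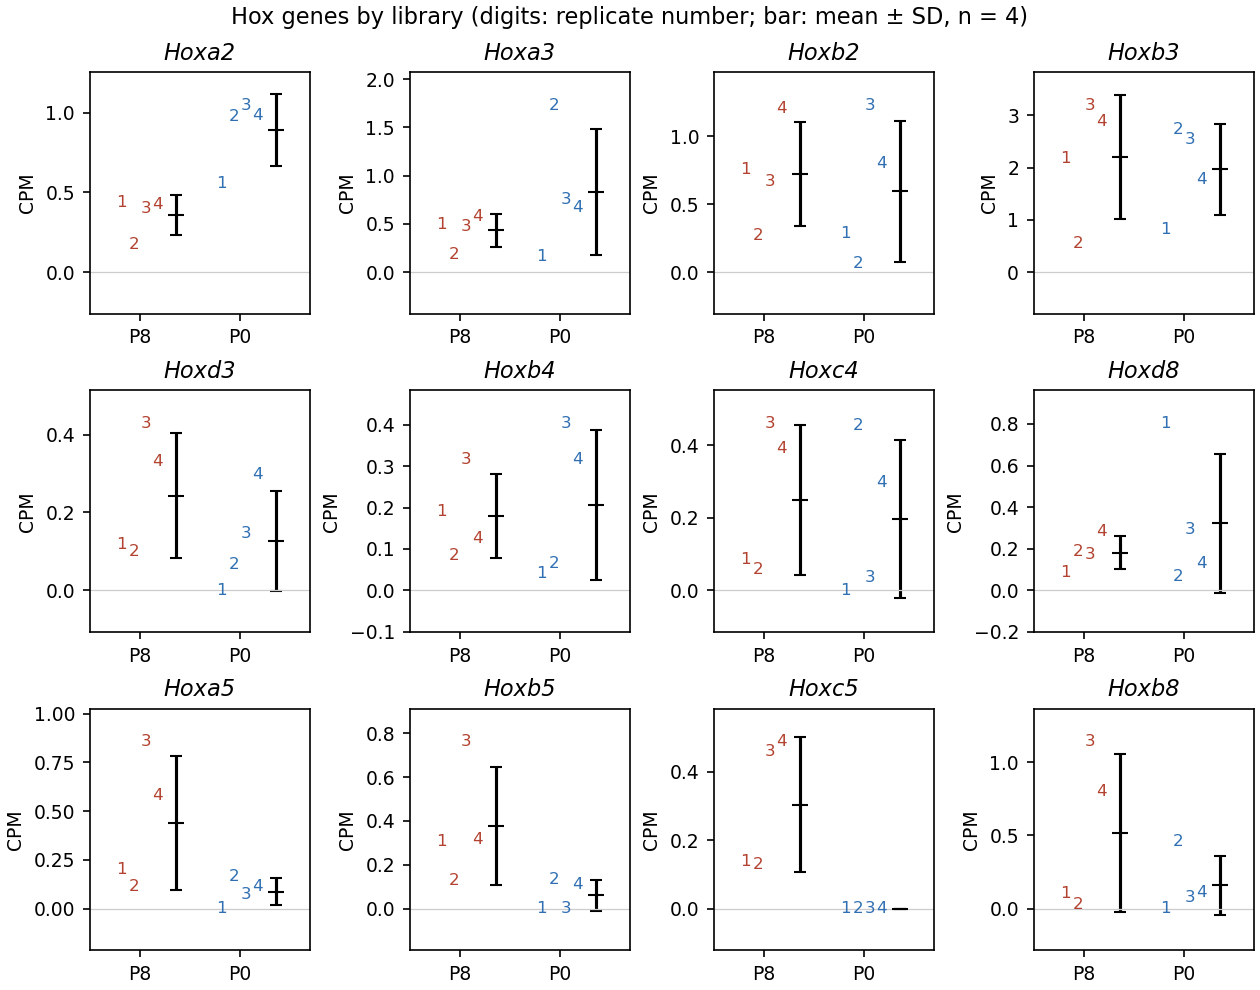
CPM of 12 Hox genes in each library, P8 left of P0, with each point drawn as its replicate number and the bar giving the mean ± SD (n = 4). Libraries 3 and 4 are the highest P8 points for Hoxb3, Hoxd3 and Hoxc4 as well as for Hoxa5, Hoxb5, Hoxc5 and Hoxb8. Library 2 is the lowest P8 point for all but Hoxd8, and Hoxa2 and Hoxc5 are the panels without overlap between the ages.

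Beyond group 8 almost nothing was read. In groups 9 to 13, 11 of 16 genes had no read at either age: Hoxa9, Hoxa10, Hoxa11, Hoxa13, Hoxc9, Hoxc11, Hoxc12, Hoxd10, Hoxd11, Hoxd12 and Hoxd13, the genes of the rear trunk, limbs and genital tubercle. Of the other 5, Hoxd9 alone reached 10 summed counts. Hoxb9 had 4 counts at P8, Hoxc10 and Hoxc13 had 2 counts each in a single P8 library, and none of the 3 had a read at P0. Hoxb13, a gene of the tail end and the prostate, had no read at P8 and 5 counts at P0, and was the 1 Hox gene read at P0 only. Taking 10 summed counts as a mark, the last gene read along cluster A was Hoxa7 at P8 and Hoxa5 at P0, in cluster B Hoxb8 at both ages, in cluster C Hoxc5 at P8 and Hoxc4 at P0, and in cluster D Hoxd8 at P8 and Hoxd9 at P0. The deeper P8 sums reach such a mark more easily.

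**Figure D4:**
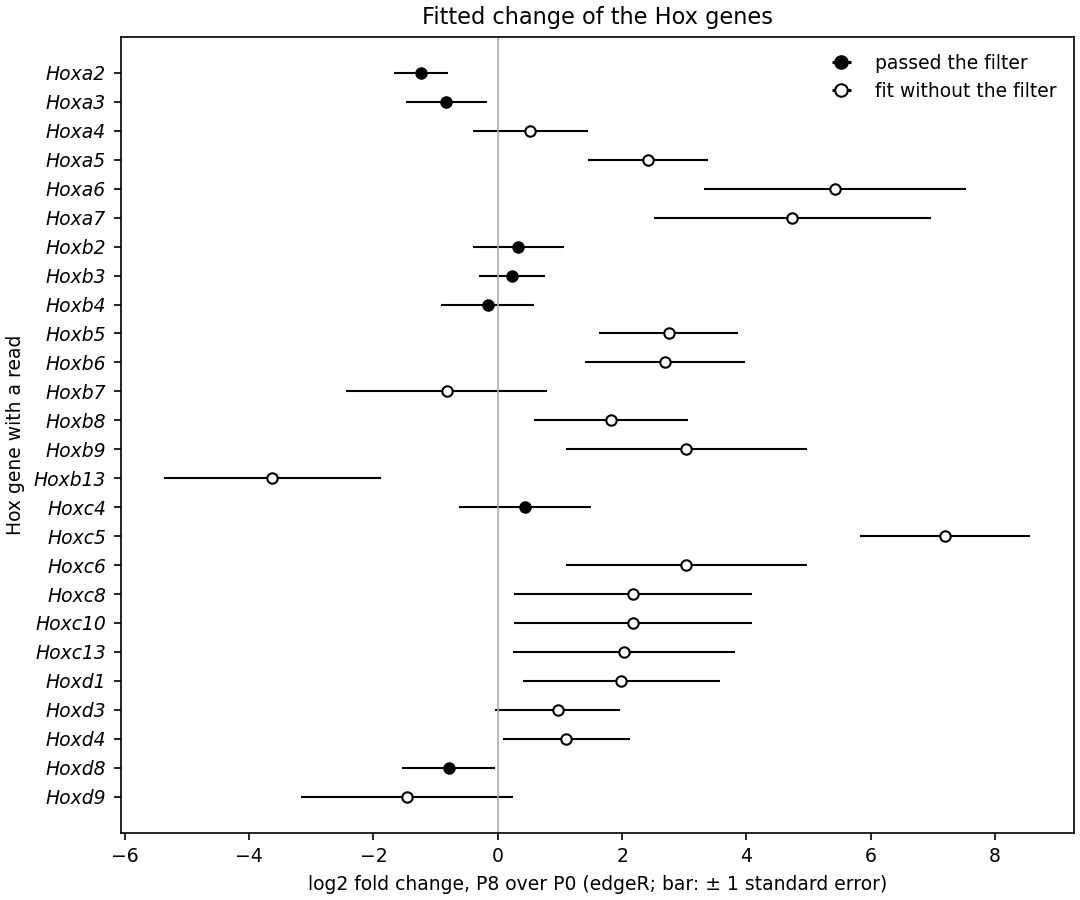
Log2 fold change of P8 over P0 for Hox genes with a read, with bars of 1 standard error (filled, genes that passed the filter; open, from the fit without it). Among the filled points Hoxa2 is lowest at -1.24, and open points of genes with no read at 1 age, such as Hoxc5 at 7.2, depend on the fit's prior count and are no measure of size.

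Levels of other markers varied between the same libraries as the Hox genes. The second P8 library lay below the other P8 libraries in CPM for 16 of the 26 Hox genes read at P8. The share of all genes that were lowest in that library was not computed, so this count cannot be called particular to Hox genes. It was also lowest at P8 in summed neuronal markers (588, 85.6, 412 and 552 CPM over the P8 libraries, against 26.9, 35.0, 37.2 and 83.1 CPM over the P0 libraries; 10 of 10 higher at P8). The same library was lowest at P8 in the oligodendrocyte lineage list (2542, 796, 2825 and 2734 CPM at P8, against 668, 704, 626 and 782 CPM at P0; 6 of 9 higher and 1 lower). Over all genes tested, 24.5% were called higher at P8 and 25% lower. Other lists went the opposite way, with the second P8 library highest at P8. These were microglial markers (2856, 3994, 2009 and 1144 CPM over the P8 libraries) and endothelial markers (295, 640, 506 and 627 CPM). Pericyte and smooth muscle markers (137, 327, 216 and 279 CPM) and the astrocyte and radial glia list (15620, 16880, 13800 and 15700 CPM) did the same. The first P8 library had 588 CPM of neuronal and 2542 CPM of oligodendrocyte markers, with 0.467 RPKM in Hox groups 5 to 8. The part of these cells in the Hox levels was not tested.

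Among neurons of the hindbrain and spinal cord, 7 of 15 listed markers passed the filter, 4 rose at P8 and 2 fell. The background for each list in this paragraph is that 49.5% of all genes tested were called, 24.5% higher and 25% lower. Tlx3, of the dorsal cord and brainstem, had 1.5, 0.384, 2.68 and 2.59 CPM at P8, against 0, 0, 0.0366 and 0 CPM at P0. Lbx1, of dorsal cord interneurons, had 1.92, 1.31, 2.53 and 1.79 CPM at P8, against 0.164, 0, 0.220 and 0.278 CPM at P0. Lmx1b, of serotonergic and dorsal cord neurons, had 0.414, 0, 0.412 and 0.267 CPM at P8, against 4.46, 11.1, 10.7 and 4.25 CPM at P0. The other called members, which are named after their values were seen, were Slc5a7 and Tph2 (higher at P8) and Slc6a4 (lower). Summed, the 15 markers had 7.43, 3.79, 10.3 and 8.48 CPM at P8, against 6.96, 12.6, 14.1 and 6.38 CPM at P0, and the ages overlapped. Lmx1b alone made up most of the sum in every P0 library and little of it at P8, so this overlap rests on that gene. Mnx1, a defining gene of spinal motor neurons, was at 0 in all 8 libraries. Of factors listed for regions that form without Hox expression, those of the forebrain summed to 153 to 202 CPM at P8 and 117 to 241 CPM at P0 (3 of 12 higher and 1 lower at P8). Those of midbrain, isthmus and cerebellum summed to 129 to 348 CPM at P8 and 222 to 363 CPM at P0 (4 of 8 tested higher and 1 lower). Both sums rest on few genes. Otx2 made up most of the forebrain sum at P0 (99.8, 181, 167 and 131 CPM, against 4.94, 3.40, 7.33 and 12.7 CPM at P8). Zic1 and Zic2, named after their values were seen, made up most of the second sum in every library. The sums therefore do not show that cells of each region were present in every library.

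**Figure D5:**
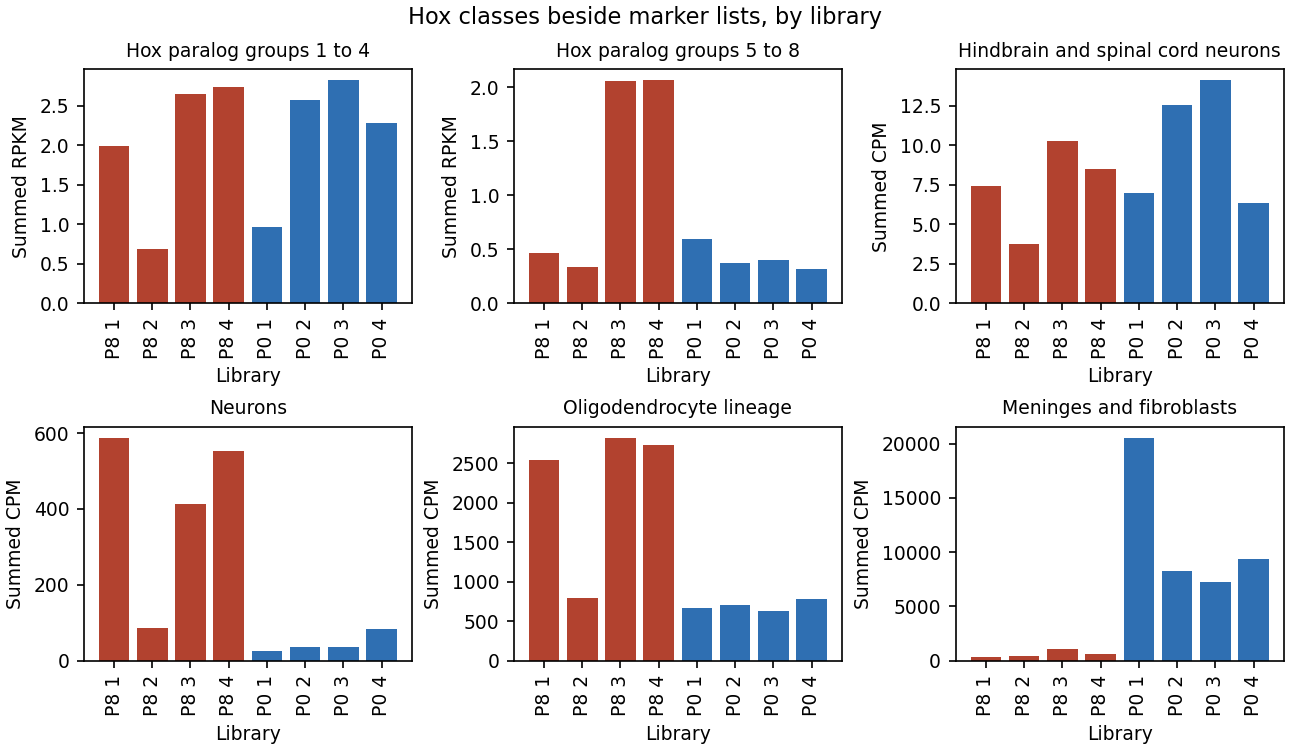
Summed levels by library for Hox groups 1 to 4 and 5 to 8 (RPKM) and for 4 marker lists (CPM), with P8 bars left of P0 bars. Hox groups 5 to 8 stand out in P8 libraries 3 and 4 (2.06 and 2.07 RPKM), neuronal and oligodendrocyte markers are low in the second P8 library (85.6 and 796 CPM), and meningeal markers are highest in the first P0 library (20550 CPM).

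Hox proteins bind DNA together with homeodomain partners of the TALE family, the Pbx proteins and the Meis and Prep (Pknox) proteins. Per length, all 9 listed cofactors were above every Hox gene, with the lowest mean 4.15 RPKM at P8 (Pbx4) and 3.17 RPKM at P0 (Meis2), against 0.591 and 0.529 RPKM for the highest Hox gene at each age. At P8, 4 rose and 3 fell (median log2 fold change 0.25, against 0.04 over all genes tested). Of all genes tested 49.5% were called, 24.5% higher and 25% lower. Meis1 averaged 42.0 ± 6.28 CPM at P8 and 13.5 ± 4.2 CPM at P0 (SD, n = 4 each; log2 fold change 1.72, adjusted p = 0.000215 by edgeR). Meis2 averaged 48.5 ± 5.31 CPM at P8 and 16.7 ± 7.72 CPM at P0, and Meis3 33.5 ± 3.38 CPM at P8 and 16 ± 1.66 CPM at P0, and both rose (log2 fold changes 1.62 and 1.15, adjusted p = 0.00220 and 0.000125 by edgeR). Pknox1 was the other riser (log2 fold change 0.83). Pbx2, Pbx3 and Pknox2 fell by 0.75, 0.78 and 0.44 on the log2 scale. The 3 Meis genes rose together, and no Pbx gene passed the test for a rise.

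Of the 16 listed regulators that act upstream of Hox genes, mainly the retinoic acid pathway and the hindbrain segment factors, 9 passed the filter, 1 rose and 4 fell (median log2 fold change -1.23, against 0.04 over all genes), where 49.5% of all genes tested were called. Aldh1a2, which makes retinoic acid in the meninges among other places, averaged 6.34 ± 4.42 CPM at P8 and 162 ± 86.3 CPM at P0, a fall of 4.63 on the log2 scale (adjusted p = 0.000159 by edgeR). All 11 meningeal and fibroblast markers fell as well (summed levels above), and their part in the fall of Aldh1a2 was not tested. The retinoic acid receptors Rara, Rarb and Rarg fell by 1.71, 2.74 and 2.34 on the log2 scale. Cyp26b1, which breaks retinoic acid down, rose and averaged 98.7 ± 5.41 CPM at P8 and 41.3 ± 15.5 CPM at P0 (log2 fold change 1.34, adjusted p = 0.00124 by edgeR). Egr2, a factor of hindbrain segments with a further role in myelinating glia, averaged 10.2 ± 2.89 CPM at P8 and 16.8 ± 6.29 CPM at P0 and was not called. Cdx2, which switches on Hox genes of the trunk, had no read at either age.

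Polycomb proteins keep Hox clusters silent, and all 24 listed genes were expressed at both ages. At P8, 3 rose, 9 fell and 12 did not pass the test (median log2 fold change -0.10), a called share near the 49.5% of all genes tested. The histone methyltransferases moved apart: Ezh2 averaged 58.4 ± 8.6 CPM at P8 and 34.7 ± 8.43 CPM at P0 and rose (log2 fold change 0.83, adjusted p = 0.00409 by edgeR), and Ezh1 averaged 21.8 ± 1.48 CPM at P8 and 66.0 ± 9.52 CPM at P0 and fell by 1.52 on the log2 scale (adjusted p = 2.5e-05 by edgeR). The other risers were Phf19 and Bmi1. The next largest falls were of Pcgf2 and Rbbp7, by 1.38 and 1.11 on the log2 scale. A further list of 14 held Trithorax group genes, H3K27 demethylases and the chromatin proteins Ctcf and Psip1. Of these 14, 1 rose and 0 fell, and the riser was Psip1, a chromatin reader (log2 fold change 0.44, adjusted p = 0.0313 by edgeR). Of the genes with a negative fold change, 3 had an unadjusted p under 0.05 by edgeR and 2 were called by DESeq2.

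Several genes just outside the clusters were expressed at levels per length that no Hox gene reached, such as Hibadh beside cluster A with 44.9 ± 5.45 RPKM at P8 and 33.2 ± 3.0 RPKM at P0. Of 11 listed neighbours, 8 passed the filter, 3 rose and 3 fell, where 24.5% of all genes tested rose and 25% fell. Skap2, beside cluster A, averaged 50.9 ± 9.04 CPM at P8 and 14 ± 5.68 CPM at P0 and rose (log2 fold change 1.95, adjusted p = 0.000403 by edgeR). Calcoco1, beside cluster C, averaged 98.2 ± 9.01 CPM at P8 and 268 ± 38.7 CPM at P0 and fell by 1.37 on the log2 scale (adjusted p = 2.9e-05 by edgeR). Ttll6, beside cluster B, fell by 2.80 on the log2 scale, Calcoco2 fell by 1.58, and Hibadh and Lnp rose (log2 fold changes 0.52 and 0.58). Evx1 and Evx2, the homeobox genes at the far ends of clusters A and D, had at most 2 reads in any library, like the Hox genes of the high paralog groups next to them. Within the clusters, 0 of 7 noncoding RNAs in the table passed the filter. Mira, a transcript of cluster A, averaged 0.0320 ± 0.0332 CPM at P8 and had no read at P0, and Mir10a, Mir10b and Mir615 had at most 3 reads in any library, in libraries not made for short RNAs.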

How the data were processed

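RNA of GLAST-sorted brain cells was measured in 8 libraries (TruSeq RNA kit v2, which does not mark strand, per the labels' protocols). The authors deposited 1 table with whole-number counts per gene, CPM and RPKM, per the file headers. The deposited CPM equalled each count over its column total, and the deposited RPKM equalled CPM over gene length in kilobases, to a relative difference of at most 4.99e-12. The submitters' processing notes name TopHat and the build mm9. The counter and the annotation: not given in the sources used here. Of the 23284 genes, 3225 had no read.

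The fit used edgeR 4.0.16 (R 4.3.3) on the counts (filterByExpr with minimum count 10 and minimum total 15, TMM, glmQLFit, two-sided glmQLFTest, no covariate, Benjamini-Hochberg adjustment over all 16808 genes tested). The common biological coefficient of variation was 30.6%. The scripts were also tested on simulated data. Levels are CPM or RPKM as deposited, with mean ± SD over 4 libraries. Each standard error was derived from the F value and the fold change. Alternatives were other scalings, no filter, DESeq2 1.42.0, a replicate block and leaving out each library. Floors cover counting error only. In every library more genes had a count of 2 than of 1, a pattern whose cause was not tested. The 3-count floors, the folds set against them and the thinning take counts as independent reads, which this pattern puts in doubt. Within an age no pair of libraries was closer than sampling noise allows (chi-square per degree of freedom at least 76.4).

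Hox genes were all to be named, but some genes that the rule gives are left out of the text and figures. Of each further list, up to 3 called genes were named, taken by size of change among those averaging 1 CPM or more (the highest gene where none was called), as was any member of the regulator and neighbour lists where a count of 5 or fewer refers to it. Members and lists were chosen with earlier results of these data known. Gene positions are GENCODE M1 spans on NCBIM37. Exons of 18 of the 39 Hox genes overlap another annotated gene.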

Additional observations from a re-analysis of the deposited data

Results flagged for a closer look

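In a group of 4 libraries, a value was picked out when the gap between the highest or lowest library and its nearest neighbour took more of the group's range than Dixon's 95% critical value. Chance picks about 1 group in 20 where values are normally distributed. Here 13 of 103 groups (12.6%) were picked, but many groups hold counts near 0. A group with reads in only 1 library is always picked, so the share picked cannot be set against that chance rate. Several of the 13 are a few reads in an otherwise empty group. Hoxc10 had 0.0317 CPM in the third P8 library, Hoxc8 had 0.0314 CPM in the fourth and Hoxc13 had 0.0212 CPM in the first, with 0 in the other P8 libraries. Hoxd1 had 0.0366 CPM in the third P0 library and 0 in the other P0 libraries. All 4 values are within 3 counts.

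Hoxd9 had 0.390 CPM in the first P0 library and Hoxb7 had 0.165 CPM in the third, with 0 in the other P0 libraries. Hoxa2 had 0.171 CPM in the second P8 library, where the nearest other P8 library had 0.396 CPM, and 0.554 CPM in the first P0 library, where the nearest other P0 library had 0.977 CPM. Hoxa4 had 0.0285 CPM in the second P8 library, against 0.127 CPM in the nearest other.

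Among the summed lists, oligodendrocyte lineage markers had 796 CPM in the second P8 library (nearest other 2540 CPM), and Trithorax group genes and H3K27 demethylases had 1510 CPM in the third P8 library (nearest other 1250 CPM). Meningeal and fibroblast markers had 20600 CPM in the first P0 library (nearest other 9380 CPM), and forebrain factors had 117 CPM there (nearest other 222 CPM). The causes were not tested.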

How the results depend on the processing

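Counts of Hox genes called at P8 ranged from 0 to 2 higher and 0 to 1 lower when 1 library was left out. The fits with higher Hox calls were those without P8 library 2, P0 library 2 or P0 library 4. They called 22.4%, 23.9% and 24.3% of all genes tested higher. With all libraries 24.5% were called higher and 25% lower. Without the filter on low counts 1 Hox gene was higher (Hoxc5) and 0 were lower, where 20.8% of all genes tested were called higher and 21% lower. Hoxc5 did not pass the filter, so the fit as planned did not test it. Why Hoxa2 lost its call there was not tested. With the replicate number as a block 0 were lower (Hoxa2, log2 fold change -1.26, adjusted p = 0.0969 by edgeR). Deviations of same-numbered libraries from the mean of their age had correlations of -0.13, -0.06, 0.06 and 0.05, so no strong shared deviation by number was seen. Such correlations cannot settle whether libraries of the same number were prepared together. Direction turned only in Hox genes that were not called. The log2 fold change of Hoxb4 was 0.134 with the replicate block and ranged from -0.528 to 0.359 without 1 library (above 0 without P8 library 2, P0 library 3 or P0 library 4). Without 1 library, Hoxb2 ranged from -0.0173 to 0.935 (below 0 without P8 library 4 or P0 library 2), Hoxb3 from -0.0175 to 0.552 (below 0 without P0 library 1), Hoxc4 from -0.029 to 1.16 (below 0 without P8 library 3) and Hoxd8 from -1.1 to 0.182 (above 0 without P0 library 1). Of the other alternative values for the 8 tested Hox genes, 86 kept direction and call and 9, all of Hoxa2, lost the call. Over all genes, 3395 to 4151 were called higher and 3584 to 4209 lower without 1 library, and 49.4% of calls were higher with TMM, against 44.4% with library size only. The summed Hox level ranged from 2.75 to 4.02 RPKM at P8 and 2.44 to 2.95 RPKM at P0 without 1 library. Of the 39 Hox genes, 31 had too few counts for the test as planned.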
